A study of Mus musculus with 12 samples.

Results

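The genes described are the replication-dependent histone genes of the mouse, 69 of the 20540 genes in the authors' deposited expression table. They were taken by symbol, as every row that starts with Hist1h, Hist2h, Hist3h or Hist4h, and were sorted into the 5 histone types by the letters that follow: 6 H1, 19 H2A, 19 H2B, 12 H3 and 13 H4 genes. The RNA came from oligodendrocyte progenitor cells (OPCs), the dividing precursors of myelinating glia, prepared from the brain of C57BL/6 mice at postnatal days 6 to 7 and kept in a proliferation medium named SATO+PDGFRA in the labels. All cells had been transfected with a biotin-tagged microRNA mimic, a synthetic RNA that acts as a mature microRNA, which was either a control mimic or miR-27a. Whole-cell RNA and RNA recovered with the tagged mimic (pulldown RNA) were sequenced for each mimic, giving 4 groups of 3 libraries. No untransfected cells were in these groups, and the labels do not state whether the 3 libraries of a group are separate cultures. The p-values therefore rest on differences between libraries, which may be technical.

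Histone cluster genes supply the core histones H2A, H2B, H3 and H4, which form the nucleosome, and the linker histone H1, which binds the DNA between nucleosomes. Cells make these proteins mainly in S phase, when new DNA has to be packaged. Most of the mRNAs have no poly(A) tail. They end in a conserved stem-loop that is bound by SLBP, and the end is formed by cleavage guided by the U7 small nuclear RNA. The mRNAs are degraded when DNA synthesis stops. The libraries were made from total RNA after ribosomal depletion, which does not select for poly(A) tails, so such mRNAs could be counted. Levels are in CPM, read counts scaled to a library's normalised size, and are not divided by gene length, so they are compared between libraries and not between genes.

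The genes sit in a few loci of the GRCm38 genome (GENCODE M21). On chromosome 13, 23 lie within chr13:21715763-22043676 and 31 within chr13:23531050-23934851, and the pseudogene Hist1h2al stands alone at chr13:51202727-51203065. The 10 Hist2 genes lie within chr3:96219865-96270132, the 3 Hist3 genes within chr11:58948920-58956830, and Hist4h4 is at chr6:136801553-136804415. Of the 69 genes, 67 are annotated as protein-coding and 2, Hist1h2al and Hist3h2bb-ps, as pseudogenes. Many stretches of sequence are shared: the median gene had 67.2% of its 100-base stretches found in no other annotated gene. In 24 genes this share was at least 80% and in 22 it was under 40%. Stretches are shared with similar copies and also with overlapping annotated genes, as Hist2h3c1 shares 100% of its stretches with Gm20634. The labels do not say how reads with several equally good positions, or in overlapping genes, were counted. Values of the genes with few unique stretches may thus hold reads of copies or of overlapping genes.

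The 3′ stem-loop was looked for in the annotated 3′ UTRs as the 16-letter pattern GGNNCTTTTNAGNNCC on the sense strand, because it is the element that sets these mRNAs apart from other mRNAs. It was found in 44 genes, beginning 22 to 59 bases after the stop codon, in 6 spellings shown 5′ to 3′ with the 4 loop bases in capitals. Each is named by its example gene in this data set.
Hist1h1e stem-loop, chr13:23621782-23621797, minus strand: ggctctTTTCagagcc
Hist1h2bb stem-loop, chr13:23747203-23747218, plus strand: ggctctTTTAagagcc
Hist2h2ac stem-loop, chr3:96220418-96220433, minus strand: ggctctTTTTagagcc
Hist1h4d stem-loop, chr13:23581950-23581965, plus strand: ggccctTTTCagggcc
Hist1h4b stem-loop, chr13:23757366-23757381, plus strand: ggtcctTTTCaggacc
Hist1h4i stem-loop, chr13:22040966-22040981, minus strand: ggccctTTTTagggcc
The spelling of Hist1h1e was shared by 26 genes, 3 H1, 10 H2A, 8 H2B and 5 H3 genes. That of Hist1h2bb was shared by 6 genes, and that of Hist2h2ac was found there alone. The other 3 spellings were found in H4 genes, 7 with that of Hist1h4d, 2 with that of Hist1h4b and 2 with that of Hist1h4i. The annotated transcript ended within 60 bases of the stem-loop in 21 of the 44 genes and ran on further in 23. No match was found in 6 further coding genes, among them Hist2h2be and Hist1h2bc. Another 17 gave none either, but their gene models hold under 60 bases of 3′ UTR, such as 48 in Hist1h1a and 0 in Hist1h1b.

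Mature mouse miR-27a-3p, the strand for which most miR-27a targets are known, is given by RefSeq (GRCm38.p6, chr8:84208727-84208747, plus strand) with its seed, bases 2 to 8, in capitals. The labels do not give the sequence of the mimic itself.
mmu-miR-27a-3p: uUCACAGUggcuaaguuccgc
A match to its seed, the 7 letters ACTGTGA or CTGTGAA, was present in the annotated 3′ UTR of 2 of the 52 histone genes whose model has at least 7 bases of 3′ UTR. They are Hist1h1d and Hist1h2ac, and in both the letters form 1 run of 8, shown in capitals.
Hist1h1d, chr13:23558952-23558979, plus strand: atcatgtgccACTGTGAAcactgtgtag
Hist1h2ac, chr13:23682702-23682729, minus strand: atgcccagaaACTGTGAAgataaagggc
Both matches lie downstream of the stem-loop, 3160 and 758 bases after its end, in annotated transcripts that run past it. Stem-loop-ended mRNA of these genes would not contain them.

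Promoter windows from RefSeq (GRCm38.p6) were matched for 62 of the 69 genes and searched, from 250 bases before to 50 bases after the start, for 3 short motifs on both strands: the octamer ATTTGCAT, which POU-domain factors such as Oct1 bind, TATAAA and CCAAT. The octamer was present in 7 of 18 H2A and 6 of 16 H2B promoters and in 0 of 28 promoters of the other types, against 1.75% of 27025 promoters of all genes. TATAAA was present in 35 of 62 (56.5%), against 14.2% of all promoters, and CCAAT in 53 of 62 (85.5%), against 37.9%. Every H1, H2A, H2B and H3 promoter held CCAAT, and 3 of 12 H4 promoters did. Several H2A and H2B genes lie back to back on opposite strands, as Hist1h2bl (chr13:21715763-21716143, minus) and Hist1h2ai (from chr13:21716422, plus) do. The windows of such a pair can overlap, so a motif there may count for both genes. These counts are thus not of separate stretches throughout. The 130 bases before the start are shown for an H1, an H2B and an H4 gene that rose with miR-27a in whole-cell RNA and for Hist4h4, which did not pass the test, with the motifs in capitals. The windows of Hist1h1e and Hist4h4 are on the minus strand.
Hist1h1e, chr13:23622559-23622688: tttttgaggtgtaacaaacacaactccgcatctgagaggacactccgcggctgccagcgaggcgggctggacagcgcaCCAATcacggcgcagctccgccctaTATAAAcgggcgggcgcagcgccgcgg
Hist1h2bb, chr13:23746604-23746733: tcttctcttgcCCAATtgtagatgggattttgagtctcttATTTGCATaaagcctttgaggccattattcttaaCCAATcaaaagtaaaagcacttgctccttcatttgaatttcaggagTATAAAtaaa
Hist1h4d, chr13:23581438-23581567: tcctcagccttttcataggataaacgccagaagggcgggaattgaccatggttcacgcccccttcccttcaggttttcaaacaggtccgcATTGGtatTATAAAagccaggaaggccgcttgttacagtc
Hist4h4, chr6:136804432-136804561: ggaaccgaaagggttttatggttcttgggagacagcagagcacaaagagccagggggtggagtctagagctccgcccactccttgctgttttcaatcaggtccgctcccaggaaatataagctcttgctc
The H2B window holds the octamer, 2 CCAAT and 1 TATAAA. The H1 window holds TATAAA and CCAAT, and the H4 window TATAAA and a CCAAT read on the other strand (ATTGG). None of the 3 motifs is in the 130 bases of Hist4h4. Hist1h4d is among the 3 of 12 H4 promoters with CCAAT, and 8 of 12 held TATAAA, while 11 of 13 H4 genes rose in whole-cell RNA. The 4 windows are examples, and whether a motif goes with the rise was not tested. These matches describe letters in a window and do not show that a factor binds there.

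Library facts that bear on these genes were as follows. Libraries held 15548418 to 24972188 assigned reads, of which the 69 genes took 33916 to 67307, or 0.200% to 0.368%. A gene was tested where 3 or more libraries of a fit held 1 CPM or more, which 64 of the 69 genes met in every fit, and 63 of them were at 1 CPM or more in all 12 libraries. The other 5 were the H1 gene Hist1h1t, the H2A gene Hist1h2aa and the H2B gene Hist1h2ba, all known for expression in the male germ line, and Hist1h2ap and Hist1h2br. Hist1h1t ranged from 0 to 0.355 CPM and Hist1h2aa from 0 to 0.334 CPM, near the 0.116 to 0.2 CPM that 3 reads are worth. Hist1h2ba ranged from 0.0667 to 0.675 CPM. OPC markers were present in all 12 libraries, as Pdgfra with 490 to 1610 CPM and Cspg4 with 18.4 to 73.6 CPM. These ranges pool whole-cell and pulldown libraries, and summed OPC markers were higher in the pulldown. Markers of oligodendrocytes and astrocytes were present too, and their sums are given beside the results they move with. In a bulk sample, fewer cells making histone mRNA and less histone mRNA per cell cannot be told apart.

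The first comparison asked which histone genes differ between miR-27a and control mimic in whole-cell RNA. The summed level of the 69 genes was 2366, 2853 and 2462 CPM in the 3 control libraries and 3627, 3412 and 3780 CPM in the 3 miR-27a libraries. Every miR-27a library lay above every control library, and the ratio of the means was 1.41. Of the 64 genes tested, 55 rose and 0 fell (limma, Benjamini-Hochberg adjusted p under 0.05 over 13393 genes), where 13% of all genes tested rose and 11.9% fell. All 3 miR-27a libraries lay above all 3 control libraries for 57 of the 64, against 20.3% of all genes. The median change of the 64 was 0.56 on the log2(CPM + 1) scale, with a range from -0.03 to 1.54, and the median over all genes tested was 0.01. The rise was found in every type: 5 of 5 H1, 15 of 17 H2A, 13 of 17 H2B, 11 of 12 H3 and 11 of 13 H4 genes.

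**Figure D1:**
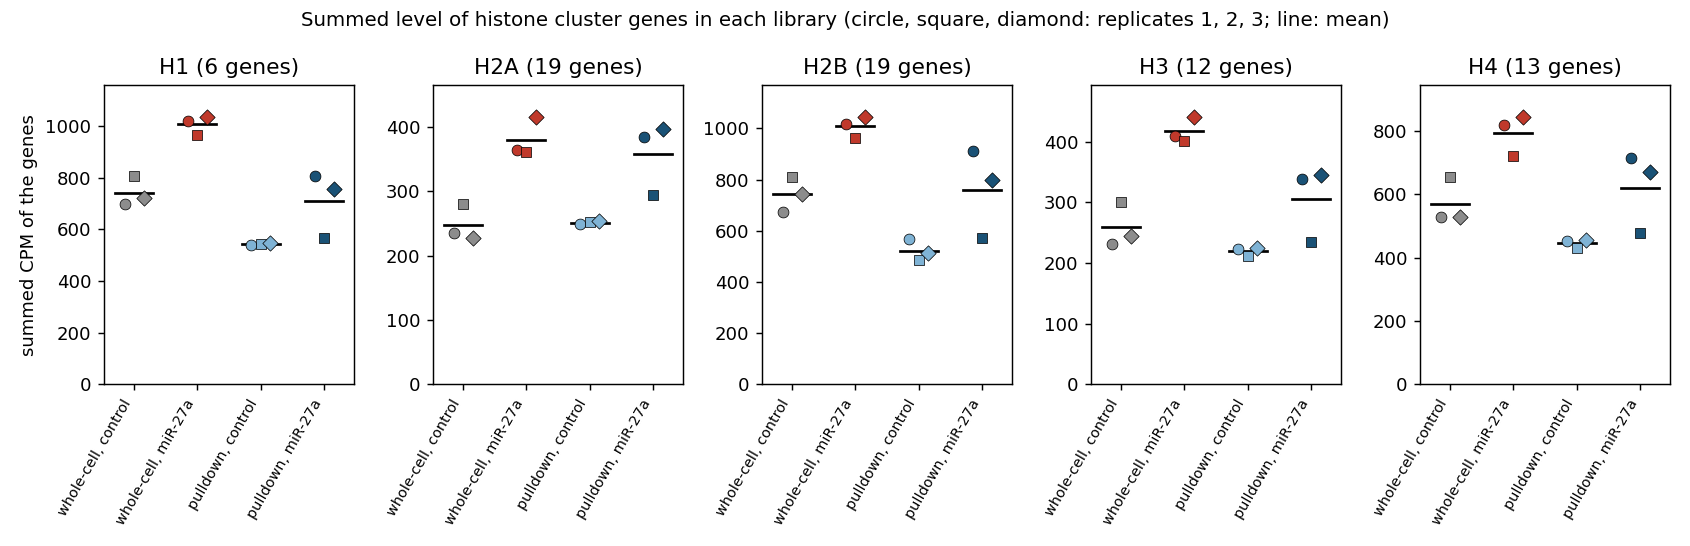
Summed CPM of the genes of each histone type (y axis, from 0) in each of the 12 libraries, by group (x axis), with replicate 1 as a circle, 2 as a square and 3 as a diamond and the group mean as a line. The whole-cell miR-27a libraries lie above the control libraries in all 5 types, and pulldown miR-27a replicate 2 lies below the other miR-27a pulldown libraries.

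The linker histone genes changed by similar amounts. Hist1h1e (chr13:23620629-23622558), whose product is histone H1.4, measured 228, 264 and 225 CPM with control and 311, 291 and 319 CPM with miR-27a. Hist1h1c, which encodes H1.2, measured 186, 226 and 194 CPM with control and 281, 257 and 282 CPM with miR-27a. Hist1h1d, which encodes H1.3 and is one of the genes with the seed match shown above, measured 138, 157 and 146 CPM with control and 197, 191 and 204 CPM with miR-27a. The groups did not overlap for any of the 3 genes. Changes over the 5 tested H1 genes ran from 0.36 ± 0.05 for Hist1h1e (log2 change ± SE, limma adjusted p 4.62e-06) to 0.57 for Hist1h1a and Hist1h1b. The summed H1 level went from 741 ± 58.3 to 1006 ± 36.0 CPM (mean ± SD, n = 3 libraries), a ratio of 1.36.

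H2A genes spanned the widest range of changes. Hist3h2a (chr11:58954685-58956830), on the Hist3 locus, measured 109.6, 123.6 and 111.1 CPM with control and 147.5, 145.9 and 154.8 CPM with miR-27a, a log2 change of 0.38 ± 0.05. In the annotation it overlaps another gene on the same strand, Trim17, so reads of the pair may not be told apart. Hist1h2ak measured 21.4, 29.1 and 19.95 CPM with control and 40.1, 37.6 and 50.2 CPM with miR-27a. Hist2h2ac measured 16.8, 19.2 and 16.2 CPM with control and 24.8, 26.5 and 30.4 CPM with miR-27a. The mimics did not overlap for these 3 genes, and the changes of Hist1h2ak and Hist2h2ac were 0.84 ± 0.10 and 0.62 ± 0.08 (limma adjusted p 1.93e-06 and 5.19e-06). The largest rise of all was that of Hist1h2ao (chr13:21810465-21810944), with 5.35, 8.34 and 3.27 CPM in control and 14.7, 14.4 and 24.9 CPM in miR-27a libraries and a log2 change of 1.54 ± 0.20 (limma adjusted p 2.7e-06). Relative to its level, its libraries within a group also differed by more than those of Hist3h2a, Hist1h2ak and Hist2h2ac, and only 7.35% of its 100-base stretches are unique. It shares 92.7% of them with Hist1h2ap, which was too low to test. Hist1h2ac, the other gene with a seed match, rose by 0.58 ± 0.09 on the log2 scale.

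H2B genes rose by at most 0.74 on the log2 scale. Hist2h2bb (chr3:96269752-96270132) measured 154, 176 and 178 CPM with control and 234, 216 and 228 CPM with miR-27a. In the annotation Hist2h2bb overlaps Gm42743 on the same strand and shares 45.4% of its 100-base stretches with it, so its values may hold reads of Gm42743. Hist1h2bc measured 95.9, 111.0 and 103.6 CPM with control and 122.6, 118.0 and 123.9 CPM with miR-27a, and its change of 0.23 ± 0.05 was the smallest among genes that rose (limma adjusted p 0.000784). With all 12 libraries in 1 fit its adjusted p was 0.0772. Hist1h2be, whose annotated span overlaps that of Hist1h1e on the same strand, measured 59.2, 73.5 and 66.4 CPM with control and 94.0, 83.5 and 98.1 CPM with miR-27a. In each of the 3 genes the lowest miR-27a library lay above the highest control library.

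H3 and H4 genes rose in nearly every case. Summed H3 went from 259 ± 37.6 to 417 ± 21.1 CPM (mean ± SD, n = 3 libraries), a ratio of 1.61, and summed H4 from 570.0 ± 72.3 to 794 ± 65.0 CPM, a ratio of 1.39. Hist1h3e measured 44.2, 58.8 and 51.1 CPM with control and 80.9, 76.2 and 90.2 CPM with miR-27a. Hist1h3i measured 35.6, 39.6 and 31.0 CPM with control and 55.9, 52.3 and 57.8 CPM with miR-27a. Hist1h3a, the H3 gene with the largest rise (0.88 ± 0.09), measured 26.4, 36.2 and 26.7 CPM with control and 52.6, 50.3 and 62.9 CPM with miR-27a. These 3 genes encode replication-coupled H3 and showed no overlap between mimics. Among H4 genes, Hist1h4d (chr13:23581598-23582735) measured 161, 199 and 166 CPM with control and 244, 216 and 252 CPM with miR-27a. Hist1h4h measured 72.2, 94.6 and 75.5 CPM with control and 113.2, 97.6 and 119.1 CPM with miR-27a. Hist1h4c measured 50.6, 60.3 and 42.7 CPM with control and 75.6, 63.0 and 75.1 CPM with miR-27a. The groups were separate here too, but for Hist1h4h and Hist1h4c the gap was narrow, between control replicate 2 and miR-27a replicate 2. Many copies encode the same H4 protein, so these values describe separate genes with a shared product.

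**Figure D2:**
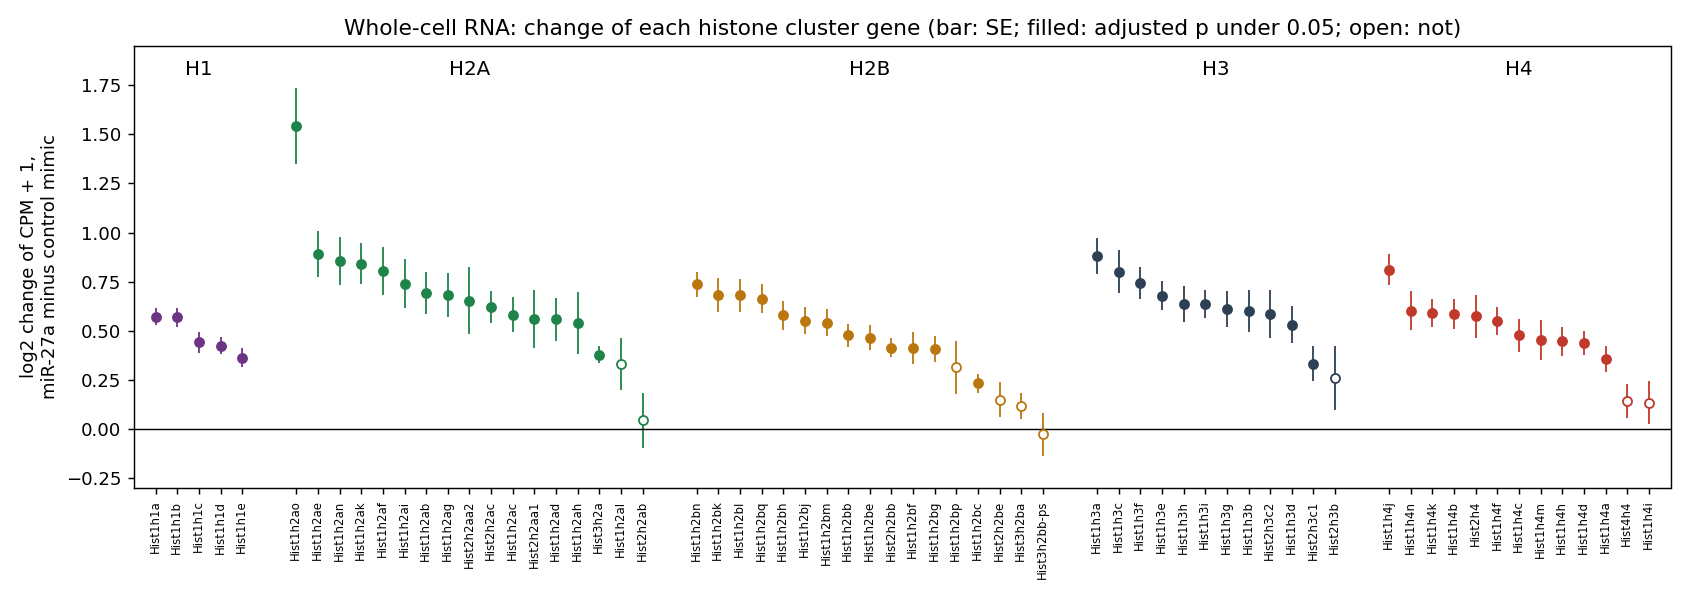
Log2 change of CPM + 1 between miR-27a and control mimic in whole-cell RNA (y axis) for each of the 64 tested genes (x axis), grouped by type, with the SE as a bar and genes with adjusted p under 0.05 filled. The 9 open points lie at 0.33 or below, and Hist1h2ao stands at 1.54.

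The 9 genes that did not pass the test in whole-cell RNA were spread over H2A, H2B, H3 and H4. They were the H2A genes Hist2h2ab (0.04 ± 0.14) and Hist1h2al (0.33 ± 0.13), the H2B genes Hist3h2ba (0.12 ± 0.07), Hist2h2be (0.15 ± 0.09), Hist3h2bb-ps (-0.03 ± 0.11) and Hist1h2bp (0.31 ± 0.13), the H3 gene Hist2h3b (0.26 ± 0.16) and the H4 genes Hist4h4 (0.14 ± 0.09) and Hist1h4i (0.13 ± 0.11). Both pseudogenes were among them. By position, 47 of 49 tested genes of the 2 large chromosome 13 groups rose, and 8 of the 15 tested genes elsewhere did. In the same order, the median changes were 0.58 and 0.33. The difference between positions was not tested. Hist2h2be, an H2B gene whose mRNA is known also as a polyadenylated transcript, measured 15.5, 12.8 and 14.4 CPM with control and 14.98, 16.7 and 15.9 CPM with miR-27a, so that the groups overlapped. Hist4h4 measured 18.3, 24.4 and 19.6 CPM with control and 22.8, 23.0 and 22.7 CPM with miR-27a, which also overlap.

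The genes were also counted by how distinct their sequences are. The number that rose was 15 of 22 among tested genes with at least 80% unique 100-base stretches, 21 of 22 between 40% and 80%, and 19 of 20 under 40%. The median changes were 0.47, 0.54 and 0.64 in that order. By gene model, 19 of 20 tested genes whose annotated transcript ends within 60 bases of the stem-loop rose (median 0.57), and 19 of 22 whose transcript runs on did (median 0.47). Of the tested coding genes with no stem-loop match, 4 of 5 with at least 60 bases of 3′ UTR rose, and 13 of 15 with fewer. Differences between these sequence and model classes were not tested.

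Genes that work with the histones were read from lists, which were chosen with earlier results of these data known. Of 11 replication-independent histone genes, which are made outside S phase as well, 7 rose and 0 fell, with a median of 0.25. The largest was Cenpa, the centromeric H3, from 15.98 ± 1.49 to 29.4 ± 1.38 CPM (mean ± SD, n = 3 libraries; log2 change 0.84, limma adjusted p 2.08e-08). H2afx, the H2A variant phosphorylated at DNA breaks, rose by 0.75, and H2afy and H2afv by 0.25 each. H3f3a and H3f3b, which encode the replacement histone H3.3, gave -0.02 and 0.02 and did not pass the test. Of 16 tested genes for histone mRNA processing and decay, 1 rose and 2 fell, with a median of 0.02, where 13% of all genes rose and 11.9% fell. Slbp, the stem-loop binding protein, rose by 0.20, and Cstf2, a cleavage factor, and Npat, the transcriptional coactivator of the histone loci, had changes of -0.24 and -0.15. Of 23 histone chaperone genes 7 rose and 2 fell, with a median of 0.03, so that the falls of both lists were near the share of all genes. Asf1b, an H3 and H4 chaperone, changed by 0.46, Chaf1b and Chaf1a, subunits of the replication-coupled assembly factor, by 0.37 and 0.29, Hat1, which acetylates new H4, by -0.26, and Asf1a, the paralog of Asf1b, by -0.20.

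Genes of DNA replication also rose in whole-cell RNA: of 29 S-phase genes, 18 rose and 0 fell, with a median of 0.24. The largest changes were those of Ccne2, the late G1 cyclin E2 (0.96), Tk1, thymidine kinase (0.93), Uhrf1, which maintains DNA methylation (0.89), and Rrm2, the small subunit of ribonucleotide reductase (0.45). The summed S-phase level was 1324 to 1347 CPM with control and 1583 to 1609 CPM with miR-27a, a ratio of 1.20, beside 1.41 for the histone genes. The ratio of summed histone to summed S-phase CPM was 1.78, 2.16 and 1.83 in control and 2.29, 2.12 and 2.37 in miR-27a libraries. These ratios overlap, since control replicate 2 lies above miR-27a replicate 2.

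Markers of other cells moved as well. All 5 astrocyte markers fell, with sums of 7012 to 7026 CPM with control and 5822 to 5877 CPM with miR-27a. Of 5 oligodendrocyte markers 2 fell, with sums of 11088 to 11585 and 10560 to 10946 CPM. All 3 tested of 6 mural, endothelial and fibroblast markers fell, with sums of 97.4 to 109.7 and 40.6 to 45.1 CPM, and the endothelial marker Cldn5 was at most 0.128 CPM. Of 6 OPC markers 3 rose and 1 fell, with sums of 1195 to 1232 and 1232 to 1261 CPM. Of 4 tested microglial markers 0 passed, and of 3 tested neuronal markers 1 rose and 1 fell. What part these shifts have in the histone changes was not tested.

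The second comparison was the same contrast in pulldown RNA, from 6 libraries that the first does not use. Same-numbered whole-cell and pulldown libraries with miR-27a partly deviated together (correlations of 0.015, 0.161 and 0.132), so these comparisons may not be independent. Summed histone CPM was 2033, 1926 and 1992 with control and 3154, 2144 and 2965 with miR-27a, a ratio of means of 1.39. The miR-27a libraries all lay above the controls, but replicate 2 by far less than the others. Of the 64 tested genes, 36 rose and 0 fell (limma, adjusted p under 0.05 over 13586 genes), where 6.05% of all genes rose and 7.06% fell. The groups did not overlap, with miR-27a above, for 34 of the 64, against 14.4% of all genes. The median change was 0.47, with a range from -0.09 to 0.84, and the median over all genes was 0.00. All 36 genes had also risen in whole-cell RNA, where they made up 36 of 55, and 19 had risen in whole-cell RNA only by the threshold, which does not show that their changes differ. The share of all genes that rose in both was not counted, so whether this overlap is particular to histone genes cannot be told.

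By type, 3 of 5 H1, 9 of 17 H2A, 9 of 17 H2B, 6 of 12 H3 and 9 of 13 H4 genes rose in pulldown RNA. Among H1 genes, Hist1h1b, which encodes H1.5, measured 28.8, 27.9 and 31.6 CPM with control and 68.8, 38.6 and 55.6 CPM with miR-27a, a log2 change of 0.83 ± 0.15 (limma adjusted p 0.00182). Hist1h1e and Hist1h1c did not pass, with 0.22 ± 0.10 and 0.25 ± 0.10, and miR-27a replicate 2 lay within the control range for both. With the replicate number as a block, the adjusted p was 0.0664 for Hist1h1e and 0.0368 for Hist1h1c, and Hist2h2ac, Hist1h2be, Hist1h3e and Hist1h3i passed with the block and not without it (limma adjusted p 0.0358, 0.00792, 0.0363 and 0.00872). The largest rise was that of the H2A gene Hist1h2af, with 4.73, 5.17 and 4.42 CPM in control and 9.62, 6.15 and 13.4 CPM in miR-27a libraries, a change of 0.84 ± 0.20 (limma adjusted p 0.00968). Its 3 miR-27a values are all above control, with a range wider than the distance between the group means, and 34.7% of its 100-base stretches are unique. Without miR-27a replicate 3 its adjusted p was 0.0714, and with no filter on low genes 0.0732.

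Among H2B genes in pulldown RNA, Hist2h2bb measured 124.7, 99.5 and 107.3 CPM with control and 231.6, 134.1 and 187.1 CPM with miR-27a, a change of 0.70 ± 0.15. Hist1h2bn had the smallest adjusted p of the 64 genes, 0.000482, with a change of 0.83 ± 0.13. Among H4 genes, Hist1h4d measured 134.7, 130.3 and 128.3 CPM with control and 215.8, 136.8 and 204.4 CPM with miR-27a, a change of 0.47 ± 0.13. Hist1h3a, the leading H3 gene in whole-cell RNA, rose here by 0.62 ± 0.15. Hist1h2ao, which led the whole-cell comparison, measured 6.53, 10.8 and 10.6 CPM with control and 9.96, 10.2 and 18.7 CPM with miR-27a and did not pass (0.41 ± 0.21). Hist2h2be, Hist2h2ab and Hist2h3c1 had negative changes that did not pass, at -0.09, -0.08 and -0.03.

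**Figure D3:**
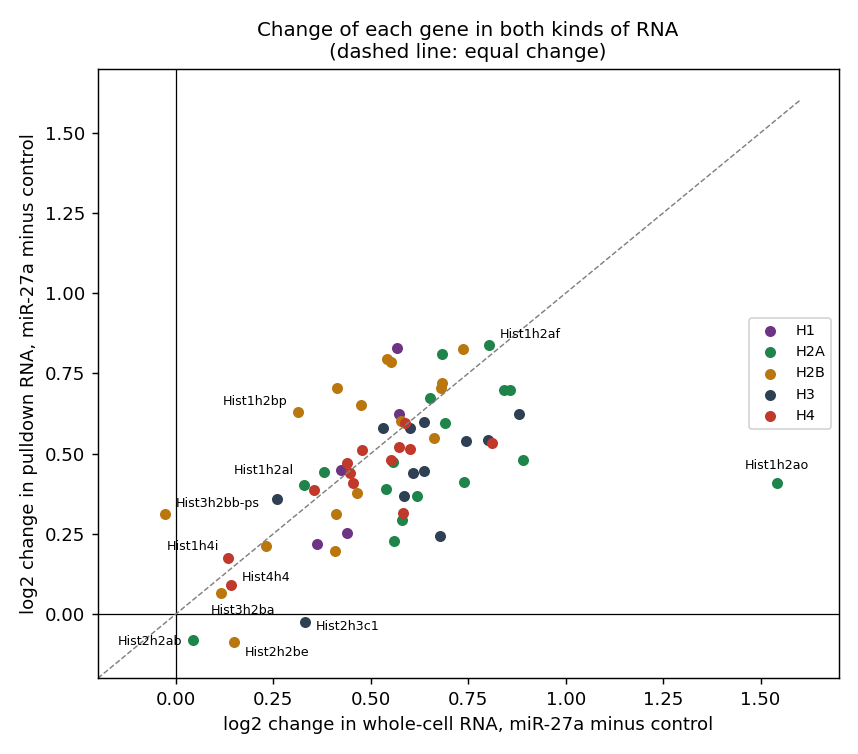
Log2 change of CPM + 1 with miR-27a in whole-cell RNA (x axis) and in pulldown RNA (y axis) for the 64 tested genes, coloured by type, with equal change as a dashed line. Most points lie between 0.2 and 0.9 on both axes, Hist1h2ao is at 1.54 and 0.41, and Hist2h2ab, Hist2h2be and Hist2h3c1 lie just below 0 on the y axis.

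One pulldown library stood apart in these genes. Replicate 2 of the miR-27a pulldown was the lowest of its group for 60 of the 64 tested genes (93.75%), where it was the lowest for 42.8% of all genes tested. It lay at or below the highest control library for 28 of the 64 (43.75%), against 66.0% of all genes tested. Without it, 55 histone genes rose, where 9.39% of all genes did, and the median change was 0.66, and the ratio of the summed levels was 1.54 in place of 1.39. Leaving out any 1 of the other pulldown libraries gave 10 to 33 rises, where 3.51% to 7.41% of all genes rose, and the fewest histone genes rose without miR-27a replicate 3. With the replicate number as a block, 44 histone genes rose, where 9.38% of all genes did. The same library was also lowest of its group in summed S-phase genes, with 1064 CPM beside 1333 and 1183 CPM, and in OPC markers, with 2846 beside 3133 and 2954 CPM, and highest in oligodendrocyte markers, with 4766 beside 3732 and 4261 CPM. What part these differences have in its histone levels was not tested.

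**Figure D4:**
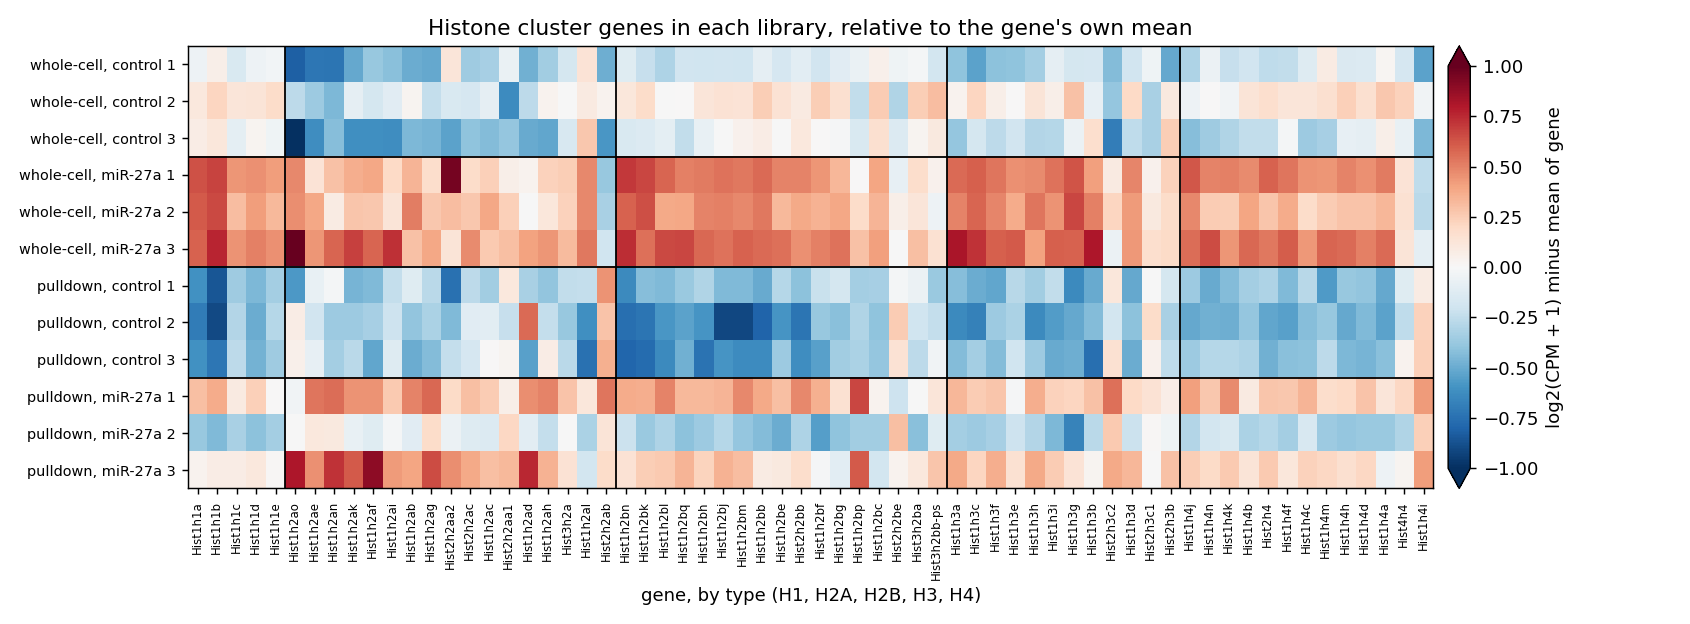
Log2(CPM + 1) of each of the 64 tested genes minus the gene's own mean over the 12 libraries, with libraries as rows, genes as columns ordered by type and a colour scale from -1 to 1 (values beyond it take the end colour). The 3 whole-cell miR-27a libraries are high in most genes of all types, pulldown control libraries are low except in several H2A and Hist2 genes, and pulldown miR-27a replicate 2 is lower than replicates 1 and 3 in 60 genes.

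Markers in the pulldown shifted between mimics too. Of the S-phase genes 15 of 29 rose and 0 fell, with a median of 0.38 and a ratio of sums of 1.31. Of the astrocyte markers 4 of 5 fell, with sums of 4607 to 4752 CPM with control and 3335 to 3637 CPM with miR-27a. Of the oligodendrocyte markers 4 of 5 fell, with sums of 5086 to 5685 and 3732 to 4766 CPM. Of 4 tested mural, endothelial and fibroblast markers 3 fell, with sums of 62.5 to 68.1 and 26.99 to 37.3 CPM. Of the OPC markers 2 of 6 rose, with sums of 2552 to 2590 and 2846 to 3133 CPM. Their part in the histone changes was not tested. Of the replication-independent histones 3 of 11 rose, led by Cenpa (0.93), and of the processing genes Ncbp1, a cap-binding subunit, rose (0.28) while Cstf2 fell by 0.44.

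The third comparison set pulldown against whole-cell RNA under the same mimic, in a fit of all 12 libraries. It asks which transcripts were more or less represented in the pulldown. Histone genes were mostly less represented or not called: with control mimic 7 of 64 were higher and 28 lower in pulldown RNA, where 31.7% of all genes were higher and 30.3% lower. With miR-27a, 3 were higher and 37 lower, where 29.3% of all genes were higher and 30.9% lower. The median differences were -0.28 and -0.39 on the log2 scale, and the medians over all genes were 0.02 and -0.01. The lower genes of both mimics had 27 in common, 27 of the 28 with control and 27 of the 37 with miR-27a, and 3 genes were higher with both. The matching overlap over all genes was not counted, so whether this one is particular to histone genes cannot be told. These contrasts use the same whole-cell and pulldown libraries as the comparisons between mimics, so they are not independent of them.

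The types behaved unevenly in this contrast. All 5 H1 genes were lower in the pulldown with each mimic, by most for Hist1h1b with control mimic at -0.96 ± 0.13 (limma adjusted p 4.51e-06). Its level was 55.0, 61.5 and 57.4 CPM in whole-cell RNA and 28.8, 27.9 and 31.6 CPM in the pulldown. Of 17 H2B genes, 13 were lower with control and 14 with miR-27a, with Hist1h2bb at -0.72 ± 0.14 with control. Of 17 H2A genes, 2 were lower and 3 higher with control, and 1 lower and 1 higher with miR-27a. Of 12 H3 genes, 3 were lower with control and 8 with miR-27a, and Hist1h3g had the lowest value of all with miR-27a at -0.73 ± 0.17 (limma adjusted p 0.000964). Of 13 H4 genes, 5 were lower with control and 9 with miR-27a. Pulldown over whole-cell ratios of the summed CPM under control mimic were 0.734 for H1, 1.01 for H2A, 0.703 for H2B, 0.851 for H3 and 0.783 for H4. The differences between types were not tested.

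A few genes went the other way. Hist2h2ab, an H2A gene at chr3:96219865-96220308, measured 4.08, 6.27 and 3.74 CPM in control whole-cell RNA and 8.69, 7.68 and 8.12 CPM in the control pulldown. Its difference was 0.71 ± 0.15 with control (limma adjusted p 0.000464) and 0.59 ± 0.15 with miR-27a. Hist1h4i, an H4 gene at chr13:22040636-22041362, measured 9.75, 14.1 and 10.4 CPM in control whole-cell RNA and 15.5, 17.3 and 17.4 CPM in the control pulldown, and its differences were 0.52 ± 0.12 and 0.57 ± 0.12. Hist2h3c2 was higher in the pulldown with both mimics as well, by 0.53 ± 0.13 and 0.31 ± 0.13. With control mimic alone Hist1h2ao, Hist1h2ae, Hist2h3c1 and Hist2h2be also passed, at 0.67, 0.45, 0.30 and 0.29. Hist2h2ab and Hist1h4i are both among the 9 genes that did not pass between mimics in whole-cell RNA. They have 98.6% and 84.9% unique 100-base stretches, while Hist2h3c1 has 0% and Hist1h2ao 7.35%.

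**Figure D5:**
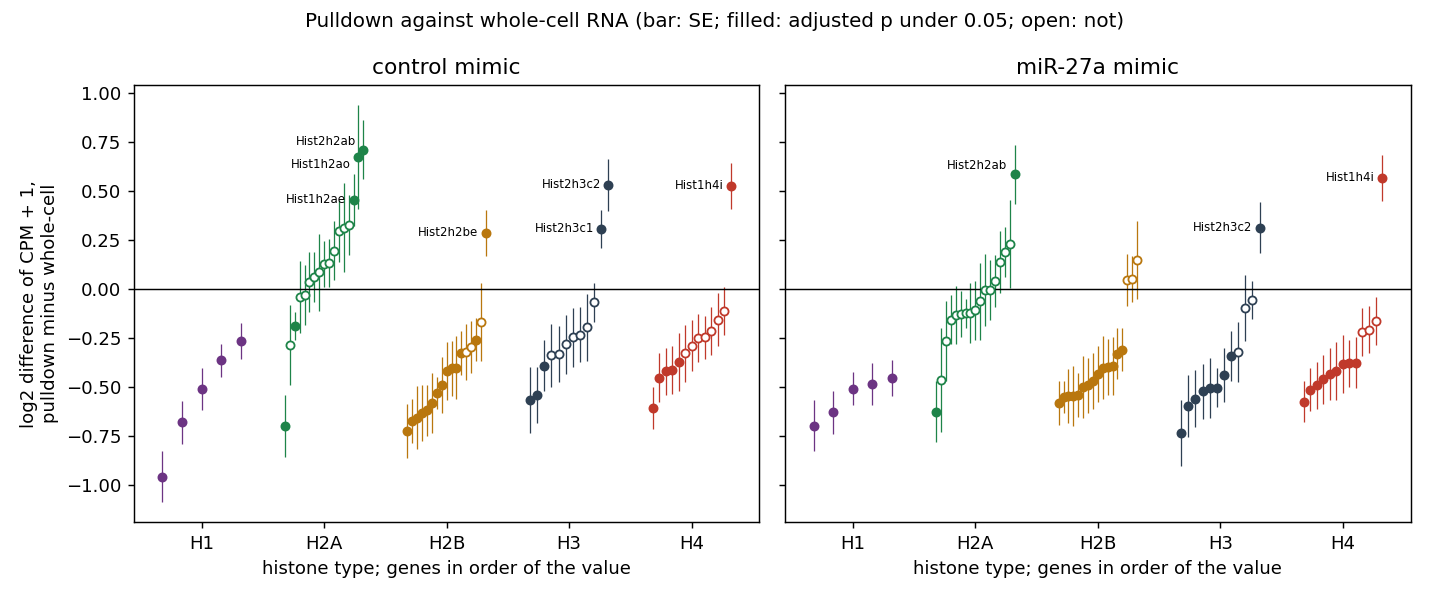
Log2 difference of CPM + 1 between pulldown and whole-cell RNA (y axis) for the 64 tested genes by type (x axis, genes in order of the value), with control mimic on the left and miR-27a on the right, the SE as a bar and adjusted p under 0.05 filled. H1 and most H2B genes lie below 0 with both mimics, H2A genes lie on both sides of 0, and the genes named in the plot are those higher in the pulldown.

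These counts moved with the scaling and with single libraries. With library totals in place of the authors' normalised sizes, 9 genes were higher and 19 lower with control mimic, where 37.3% of all genes were higher and 24.5% lower. With miR-27a they were 3 and 26, where the shares of all genes were 36.1% and 23.9%. Without whole-cell control replicate 2, the control contrast gave 5 higher and 19 lower with a median of -0.18, where 29.4% of all genes were higher and 27.6% lower, so that the histone genes lower were then near the share of all genes. Without pulldown miR-27a replicate 2, the miR-27a contrast gave 6 higher and 27 lower with a median of -0.18, where 29.4% of all genes were higher and 31.6% lower. Summed OPC markers were 2.12 times as high in the pulldown as in whole-cell RNA with control and 2.38 times with miR-27a. The same ratios were 0.480 and 0.394 for oligodendrocyte markers, 0.669 and 0.590 for astrocyte markers, and 0.682 and 0.748 for the S-phase genes. What part these differences have in the histone values was not tested.

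The last comparison asked whether the pulldown difference of a histone gene depends on the mimic. No histone gene passed: 0 of 64 were called by limma, and limma voom on the recovered reads also called 0. An unadjusted p under 0.05 was found for 4 of the 64, where 13% of all genes had one, and 1.07% of all genes were called. The median difference was -0.05. The 4 genes were Hist1h2ao (-1.14 ± 0.37), Hist1h3e (-0.44 ± 0.14), Hist1h2ae (-0.41 ± 0.19) and Hist2h3c1 (-0.36 ± 0.14), all with a lower value under miR-27a. Without pulldown miR-27a replicate 2, 3 genes passed, near the 3.42% of all genes called in that setting, and the median was 0.13. The genes with a seed match, Hist1h1d and Hist1h2ac, gave 0.03 ± 0.15 and -0.29 ± 0.17 and did not pass.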

How the data were processed

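The authors deposited 1 table of log2 CPM for 20540 genes in 12 libraries. Per the series' design text, stranded total RNA libraries depleted of ribosomal RNA were sequenced as paired ends, trimmed with skewer, aligned with HISAT2 to GRCm38, sorted with SAMtools, counted with featureCounts of Subread and normalised by the authors in R. Versions and the strand setting are not stated there, and the submitters' processing notes also list mm8 with no role. All libraries shared a lowest value of -6.27. On the linear scale and with that value taken off, 100% of the entries of a library were whole numbers of reads times 1 unit (within 0.01 reads). This gave CPM, reads and normalisation factors of 0.961 to 1.055.

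Tests used limma 3.58.1 in R 4.3.3, two-sided with an empirical Bayes trend, on log2(CPM + 1), a scale that understates changes of low genes. Benjamini-Hochberg adjustment ran over all genes tested, at 0.05. Mimics were compared within whole-cell and within pulldown RNA (3 against 3 libraries each), and pulldown with whole-cell RNA in 1 fit of the 12 libraries. The scripts were tested on simulated data. Counting error limits the precision of a low gene, and other differences between libraries add to it. As a measure of the first, 3 reads were worth 0.116 to 0.2 CPM. Same-numbered pulldown libraries deviated together (correlations of 0.135, 0.275 and 0.107), and whole-cell ones did not (0.00, -0.03 and -0.03). Same-numbered whole-cell and pulldown libraries gave 0.015, 0.161 and 0.132 with miR-27a, and -0.055, -0.097 and 0.012 with control mimic. The replicate number thus went with shared deviations between some groups only, by the data and not by the labels.

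The histone genes and the lists beside them were chosen with earlier results of these data known. Named were the 3 genes per type with the highest mean CPM, the largest rise and fall in each comparison, genes that did not pass where few, germline-type genes, and up to 4 genes per list with the smallest p, of which 1 is not reported here. Other genes singled out were chosen after their values were seen. Of the listed genes, 4 were not in the table. Gene models and 100-base stretches were from GENCODE M21, sequences from GENCODE and RefSeq, handled with pandas 2.3.3 and numpy 2.4.6 under Python 3.11.15 and drawn with matplotlib 3.10.9. Alternatives were other pseudocounts, filters and scalings, deposited values, limma voom on recovered reads, array weights, a replicate block, all libraries in 1 fit, and leaving out each library.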

Additional observations from a re-analysis of the deposited data

How the results depend on the processing

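The whole-cell count of 55 risen histone genes ranged from 50 to 58 over all alternatives, where 5.48% to 15.4% of all genes rose. With the replicate block, 55 histone genes rose, where 12% of all genes did. The pulldown count of 36 depended on the choices: it was 10 with no filter on low genes, 60 with array weights (whose estimation stopped before its tolerance), 44 with the replicate block, and 10 to 55 when 1 library was left out. The share of all genes that rose moved too, from 6.05% to 2.9%, 17.7% and 9.38% in the first 3 and to 3.51% to 9.39% in the last. Leaving out 1 control pulldown library gave 19 to 21, where 3.53% to 4.11% of all genes rose. The pulldown count was 53 with the block and without miR-27a replicate 2, where 9.99% of all genes rose. That alternative was chosen after seeing the data. No histone gene fell in either mimic comparison under any of these. For pulldown against whole-cell RNA, the block called 37 of 64 genes in either direction with control mimic, where 62.2% of all genes were called. With miR-27a it called 40 of 64, where 60.6% of all genes were called, so both counts were near the share of all genes. The block changed no call of the difference between mimics. That difference, with 0 genes called, gave 7 with array weights (6 positive, 1 negative), where 12.5% of all genes were called, and 0 to 3 when 1 library was left out, where 0.31% to 3.42% were. The causes of these shifts were not tested. The summed ratios stayed within 1.36 to 1.49 in whole-cell and 1.29 to 1.54 in pulldown RNA. Among the genes named, 0 reversed. Genes under about 5 CPM and near-identical copies limit what single values can show, and with 3 libraries a group, a gene that did not pass may still differ.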
